A study of Mus musculus with 6 samples.

Results

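The MYC and MAX network is a group of 8 genes in this report: Myc, Mycn, Max, Mxd1, Mxi1, Mxd3, Mxd4 and Mnt. They were taken by symbol from the 24063 gene symbols of the count tables, and the group was proposed with earlier results of these data known. All 8 were found, and all 8 were among the 16336 genes that passed the filter on low counts and were tested. Where a gene had several RefSeq transcript rows, the row with the highest mean count represented it.

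RNA was sequenced from penile tumors of 3 SA mice, with the genotype PB-Cre+ Smad4L/L ApcL/L, and from the penile epithelium of 3 wild type (WT) C57BL/6 mice. All animals were 5 months old, and the tumors formed with no carcinogen given. The study's Cre line is PB-Cre4, a Cre recombinase driven by a probasin promoter that responds to androgen, and it deletes the floxed Smad4 and Apc alleles in the cells where that promoter is active. The control mice carried neither Cre nor floxed alleles by their labels, and the strain background of the SA mice is not given in the sources used here.

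MYC proteins are transcription factors that bind DNA only as pairs with MAX, and a MYC and MAX pair favours transcription of genes for growth, ribosomes and metabolism. MAX also pairs with the MXD proteins (MXD1, MXI1, MXD3 and MXD4) and with MNT. Those pairs bind the same short DNA element, the E-box CACGTG, and recruit the SIN3 corepressor with histone deacetylases. In stratified squamous epithelium MYC is known for its part in the proliferating basal layer, and MXD1 and MXD4 are known from differentiating cells. Apc loss stabilizes β-catenin, and MYC is a classical target of β-catenin and TCF factors in the intestine.

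Mycn rose in the SA tumors, by 4.15 on the log2 scale, and Mxd4 fell, by 1.21. Mxi1 also passed the test, at a log2 fold change of -0.38. The other 5 members, among them Myc and Max, did not pass an adjusted p of 0.01 (edgeR quasi-likelihood test, Benjamini-Hochberg adjustment over the 16336 genes). The network as a group therefore held 1 gene called higher, where 20.1% of all tested genes were called higher, and 2 called lower, where the share over all genes was 17.5%. In either direction 3 of 8 members, or 37.5%, were called beside 37.6% of all genes, so the share of called genes was close to that of the whole table. When a size of 2 or more on the log2 scale was also required, 1 of 8 members passed beside 13.0% of all genes. The median log2 fold change was -0.22 over the members and 0.03 over all tested genes.

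**Figure D1:**
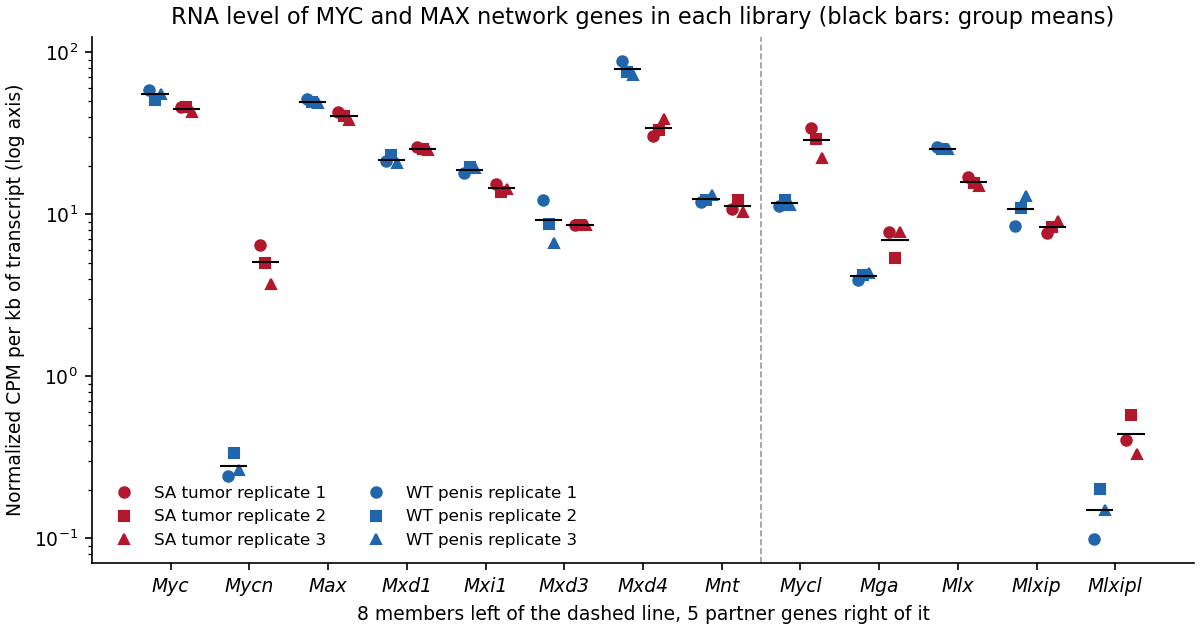
Level of each network gene in each library, as TMM-normalized CPM (counts scaled to library size) per kilobase of transcript on a log axis. Points are libraries (red SA tumor, blue WT penis, shape by replicate) and black bars are group means, with the 8 members left of the dashed line and 5 partner genes right of it. Mycn stands at 0.28 in WT penises and 5.07 in SA tumors, while Myc and Max lie close together in both groups.

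The start sites of the genes were then read for the element that the network binds and for elements of TCF and E2F factors. Promoter windows of 300 bases, 250 before and 50 after the start, were taken from RefSeq on GRCm38.p6, whose chromosome coordinates are those of mm10. Windows were matched for 7 of the 8 members (9 windows), and Myc was not matched. Both strands were searched for the E-box CACGTG, which is its own reverse complement, for the TCF/LEF core CTTTGA and for the E2F element TTTGGCGC. Of all 32851 windows, 7.15% held the E-box, 16.0% the TCF/LEF core and 0.514% the E2F element.

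The Mycn window held both of the last motifs. Positions are relative to the RefSeq start at 12941836, while GENCODE M21 places the start further upstream, at 12941914. The stretch shown first, chr12:12941915-12942086 on the minus strand, lies before both starts. It holds the E2F element at positions -183 and -168, in capitals. The second line, chr12:12941832-12941861, spans the RefSeq start and lies inside the gene by GENCODE M21. It holds the TCF/LEF core on the opposite strand at position -13, in capitals as read on the gene's strand. Both stretches are shown because Mycn had the largest change of the network.
Mycn, E2F elements: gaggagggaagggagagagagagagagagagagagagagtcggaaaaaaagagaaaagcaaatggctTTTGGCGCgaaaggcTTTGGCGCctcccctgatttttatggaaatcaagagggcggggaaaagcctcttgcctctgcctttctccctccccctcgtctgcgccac
Mycn, TCF/LEF core: atcccccgagctTCAAAGcgcagccagtga

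The E-box, the element that the network's own proteins bind, was present in the windows of 3 members, Max, Mxd4 and Mnt. Each is shown with 12 bases on either side and the E-box in capitals. The E-box of Max began at position -3 on chr12:76962234-76962263 (minus strand), that of Mxd4 at -219 on chr5:34187912-34187941 (minus strand), and that of Mnt at -123 on chr11:74830789-74830818 (plus strand).
Max: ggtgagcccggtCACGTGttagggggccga
Mxd4: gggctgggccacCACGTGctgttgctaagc
Mnt: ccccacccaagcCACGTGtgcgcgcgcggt
A match is a description of letters and not of binding, and the motifs were chosen with these sequences in view. Among these 3 genes Mxd4 fell, while Max and Mnt did not pass the test.

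Libraries differed in depth. The gene rows of a library held from 23828283 to 110509147 counts, and SA tumor 3 held 4.42 times the median count of the remaining 5 libraries. Levels are therefore given as CPM, counts scaled to library size, with library sizes normalized by the trimmed mean of M-values (TMM), and 3 counts, the smallest level taken as shown, were between 0.0244 and 0.137 CPM for counting error only. The 3 samples of a group came from separate mice. An exact permutation test of 3 against 3 samples cannot give a two-sided p under 0.10, so the tests rest on the model fitted over all genes. In bulk tissue, fewer cells of a type and less RNA per cell cannot be told apart.

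The MYC genes come first. Myc (NM_001177352, chromosome 15, 61985341 to 61990361, GRCm38.p6) was abundant in every library. Its level was 110, 110 and 103 CPM in the SA tumors and 141, 122 and 132 CPM in the WT penises. All 3 tumors thus lay below all 3 controls, at a mean of 108 ± 3.89 against 132 ± 9.63 CPM (SD, n = 3 each). The log2 fold change was -0.29 (SE 0.0931, 95% interval -0.50 to -0.08) with an adjusted p of 0.0282 in edgeR, which did not pass. The 95% interval lay below 0 under this normalization.

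Mycn (NM_008709, chromosome 12, 12936093 to 12941836), which encodes N-MYC, a relative of MYC best known from the developing nervous system and from progenitor cells, was low in the controls. Its raw counts were 454, 392 and 1190 in the SA tumors and 14, 26 and 15 in the WT penises. In normalized CPM these were 16.9, 13.0 and 9.66 in the tumors and 0.633, 0.868 and 0.683 in the controls. The groups were far apart, and the lowest tumor stood well above the highest control. Mycn rose 17.8-fold (log2 fold change 4.15, SE 0.284, 95% interval 3.5 to 4.8) with an edgeR adjusted p of 1.13e-05. Of the 16336 genes, 3.95% had a larger log2 fold change. The spread among tumors was wide, with a coefficient of variation of 27.4%, against 3.61% for Myc.

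Mycl, the third MYC gene, is no member of the 8 but shares their partner MAX. It was at 120, 102 and 77.8 CPM in the SA tumors and at 39.6, 43.0 and 40.0 CPM in the WT penises. Mycl rose 2.44-fold (log2 fold change 1.29, SE 0.155, edgeR adjusted p = 0.000212). Mycn and Mycl followed the same order among the tumors, highest in SA tumor 1 and lowest in SA tumor 3.

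Max (NM_008558, chromosome 12, 76937269 to 76962323), the partner that the proteins of the network share, was at 85.5, 81.2 and 76.4 CPM in the SA tumors. In the WT penises it was at 103, 98.7 and 97.1 CPM, so the groups did not overlap. The log2 fold change was -0.30 (SE 0.0894, 95% interval -0.50 to -0.09) with an edgeR adjusted p of 0.0214, which did not pass. Per kilobase of transcript, the ratio of Myc to Max was 1.08, 1.13 and 1.13 in the tumors and 1.14, 1.03 and 1.14 in the controls. The ranges of this ratio overlap, and it does not depend on how libraries are scaled. The ratio of Mycn to Max, in contrast, was 0.124 ± 0.0274 in the tumors and 0.00565 ± 0.00105 in the controls (SD, n = 3 each).

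Of the MXD genes, Mxd4 (NM_010753, chromosome 5, 34176580 to 34187710) changed most. This antagonist of MYC was at 36.0, 39.2 and 45.6 CPM in the SA tumors and at 105, 89.1 and 85.7 CPM in the WT penises. Every tumor was well below every control. Mxd4 fell to 0.433 of the control level (log2 fold change -1.21, SE 0.126, 95% interval -1.5 to -0.92, edgeR adjusted p = 9.55e-05). Exons of Mxd4, over all its annotated transcripts, share 514 bases with the antisense gene Gm42846 (GENCODE M21). Whether the shared stretch lies in the row used was not looked at. The strand setting of the counting is not given in the sources used here, so reads in that stretch cannot be assigned to one of the pair.

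Mxd1 (NM_010751, chromosome 6, 86647044 to 86669234), whose product marks differentiating cells in many tissues, did not follow Mxd4. It was at 122, 118 and 116 CPM in the SA tumors and at 99.0, 109 and 97.1 CPM in the WT penises. The tumors all lay above the controls, by a log2 fold change of 0.22 (SE 0.0895) that did not pass the edgeR test (adjusted p = 0.0704). The ratio of Mxd1 to Mxd4 per kilobase was 0.752 ± 0.105 in the tumors and 0.279 ± 0.0363 in the controls (SD, n = 3 each).

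Mxi1 (NM_001008542, chromosome 19, 53310128 to 53373293) encodes MXI1, also called MXD2. It was at 79.9, 71.0 and 74.3 CPM in the SA tumors and at 92.8, 101 and 99.1 CPM in the WT penises, without overlap. The log2 fold change was -0.38 (SE 0.0918) with an edgeR adjusted p of 0.00848, just past the threshold. The call was lost without SA tumor 2 (adjusted p = 0.0263), SA tumor 3 (0.0203), WT penis 2 (0.0367) or WT penis 3 (0.0234), with log2 fold changes between -0.43 and -0.34 over all 6 omissions. Exons of Mxi1 share 194 bases with Gm10197 on the other strand.

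Mxd3 (NM_016662, chromosome 13, 55325170 to 55329900), the MXD gene known from cycling cells, was at 11.1, 11.1 and 11.2 CPM in the SA tumors. The WT penises spread around those values, at 15.8, 11.3 and 8.66 CPM. The log2 fold change was -0.10 (edgeR adjusted p = 0.727) and turned to 0.15 without WT penis 1. Its exons share 105 bases with Prelid1 on the other strand. Mnt (NM_010813, chromosome 11, 74830806 to 74845725), a widely expressed MAX partner that recruits SIN3, was at 49.5, 56.4 and 47.8 CPM in the tumors and at 54.9, 56.3 and 60.0 CPM in the controls. The groups overlapped, and the log2 fold change of -0.16 (SE 0.101) did not pass the edgeR test (adjusted p = 0.226).

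In all, 6 of the 8 members had groups that did not overlap, where 63.4% of all tested genes had none. Their changes were small outside Mycn and Mxd4. The scaling of libraries mattered for those small changes. With library totals alone in place of TMM, the median log2 fold change of all genes moved from 0.03 to 0.31, and the share of called genes that were higher moved from 53.4% to 74.4%. Under that scaling Myc and Max stood at -0.01 each (edgeR adjusted p = 0.964 and 0.9), Mxi1 at -0.09 (0.418), Mxd1 passed at 0.50 (0.00177), and Mxd3 and Mnt turned to 0.19 and 0.13 without passing. A change of scaling shifts all genes alike, so values relative to the median of all genes hardly depend on it by construction. On that scale, under TMM, Myc stood at -0.32, Max at -0.33, Mxi1 at -0.41, Mxd1 at 0.19, Mycn at 4.12 and Mxd4 at -1.24.

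**Figure D2:**
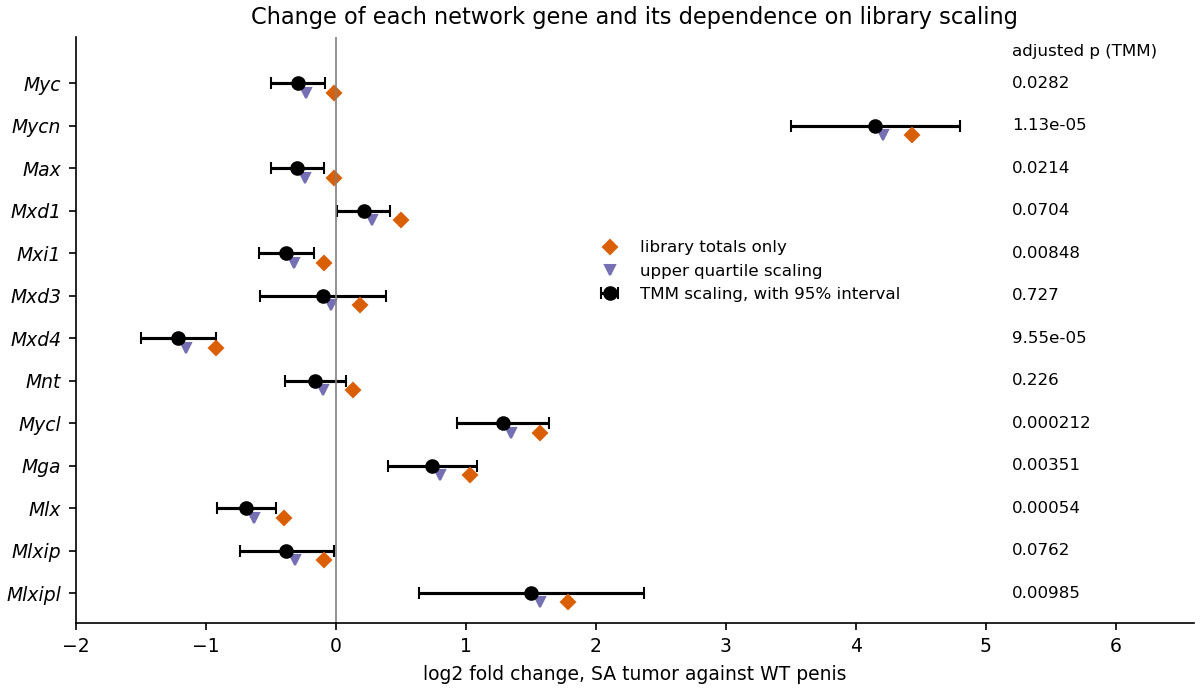
Log2 fold change (SA tumor against WT penis) of the 8 members and 5 partner genes. Black points and bars are the TMM estimate with its 95% interval, purple triangles the upper quartile scaling and orange diamonds the library totals alone; numbers at the right are edgeR adjusted p-values under TMM. Mycn at 4.15 and Mxd4 at -1.21 keep their side of 0 under each scaling shown, while the values of Mxd3 and Mnt change sign under library totals.

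Levels per kilobase of transcript allow genes to be ranked within a library. In the WT penises Mxd4 was the most abundant member, at 79.1 ± 8.65 CPM per kb, above Myc at 55.0 ± 4.02 and Max at 49.7 ± 1.61 (SD, n = 3 each), and the last pair overlapped. Then came Mxd1 at 21.8 and Mxi1 at 18.9, which did not overlap. Mnt at 12.4 and Mxd3 at 9.19 overlapped, and Mycn was last at 0.28 CPM per kb.

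In the SA tumors Myc ranked first, at 44.9 ± 1.62 CPM per kb, above Max at 40.4 ± 2.26 without overlap (SD, n = 3 each). Mxd4 came next at 34.2 ± 4.14, and its range overlapped that of Max. Mxd1 followed at 25.4, Mxi1 at 14.6, Mnt at 11.2 and Mxd3 at 8.6, and Mycn was last of the members again, at 5.07 ± 1.39 CPM per kb. Per kilobase, Mxd4 was thus above Myc in all 3 controls and below it in all 3 tumors. In SA tumor 3 Mxd4 stood at 38.7 and Max at 38.1 CPM per kb. The order in the controls rests on the division by transcript length, 1179 bases for Mxd4 and 2399 for Myc. Without it Mxd4 was below Myc in every control too, at 105, 89.1 and 85.7 against 141, 122 and 132 CPM.

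Shares within the families describe the same shift without any scaling of libraries. Of the per-kilobase sum of Myc, Mycn and Mycl, Myc made up 82.1% ± 1.78 in the WT penises and 57.5% ± 4.70 in the SA tumors. The share of Mycl was 17.5% in the controls and 36.1% in the tumors, and that of Mycn 0.422% and 6.38%. Set against Myc in the same library, Mycn was 14.1%, 10.9% and 8.65% of its level in the tumors and 0.414%, 0.658% and 0.477% in the controls. Per kilobase, Myc mRNA was thus the most abundant of the 3 in each library of both groups. This order and the shares rest on the division by transcript length, 2399 bases for Myc and 3496 for Mycl. Without it Mycl was above Myc in SA tumor 1, at 120 against 110 CPM, and below it in the other libraries.

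Among Mxd1, Mxi1, Mxd3, Mxd4 and Mnt, the share of Mxd4 was 55.8% ± 2.26 in the controls and 36.3% ± 3.28 in the tumors. The share of Mxd1 was 15.5% ± 1.44 and 27.1% ± 1.42. The log2 ratio of Myc plus Mycn to the sum of these 5 genes was -0.803, -0.877 and -1.05 in the SA tumors and -1.37, -1.45 and -1.26 in the WT penises. The groups did not overlap, and the means differed by 0.446, from -1.36 ± 0.0952 to -0.911 ± 0.129 (SD, n = 3 each). Without division by transcript length the difference was 0.16. Mycl is not part of this ratio. Its largest part above the line, Myc, was lower in the tumors, at 44.9 against 55.0 CPM per kb, while Mycn was at 5.07 against 0.28. Below the line Mxd4 was at 34.2 against 79.1 CPM per kb.

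**Figure D3:**
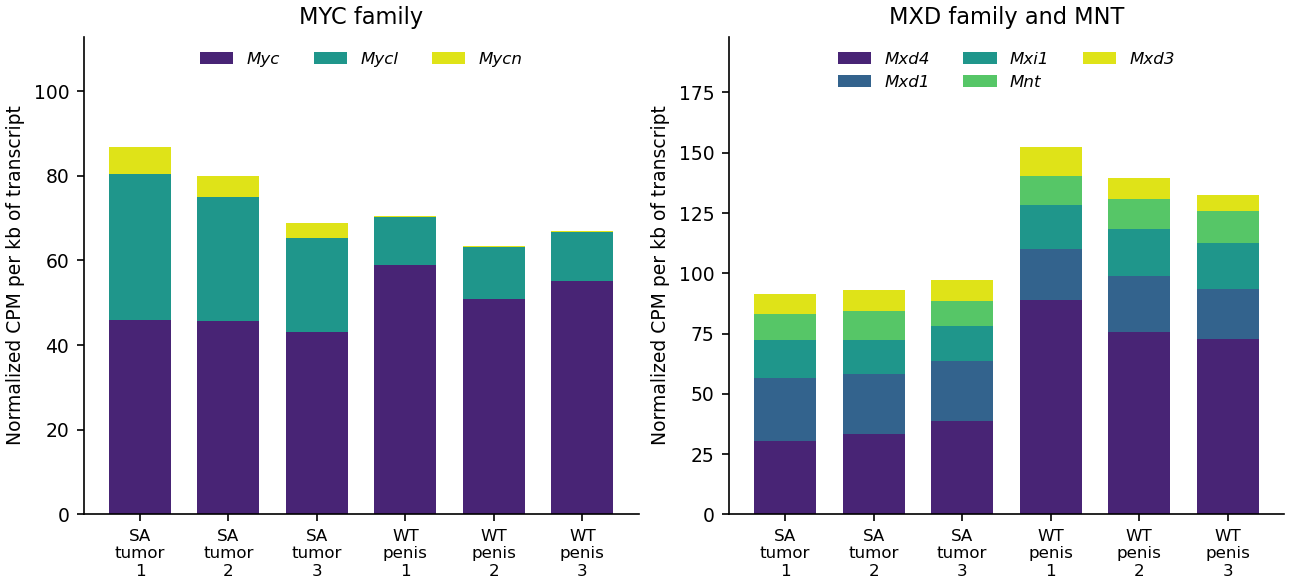
Stacked levels of the MYC genes (left) and of the MXD genes and Mnt (right) in each library, in TMM-normalized CPM per kilobase of transcript, with axes from 0. Mycl and Mycn add more to the MYC sum in the 3 SA tumors than in the 3 WT penises, and the Mxd4 block is shorter in each tumor (36.3% of the right-hand sum on average) than in each control (55.8%).

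The wider network consists of MGA, which pairs with MAX, and of MLX with its partners MLXIP and MLXIPL, which sense glucose metabolites, beside Mycl. Of these 5 genes, 3 rose, where 20.1% of all genes did, and 1 fell, where 17.5% did, with a median log2 fold change of 0.74. Mga was at 109, 74.5 and 108 CPM in the SA tumors and at 54.5, 59.1 and 60.4 CPM in the WT penises (log2 fold change 0.74, edgeR adjusted p = 0.00351). Mlx was at 33.7, 30.7 and 29.4 CPM in the tumors and at 51.5, 49.7 and 49.7 CPM in the controls, and it fell by 0.69 on the log2 scale (adjusted p = 0.00054). Mlxipl was rare, at 1.61 ± 0.466 and 0.548 ± 0.186 CPM (SD, n = 3 each; log2 fold change 1.5, adjusted p = 0.00985), and Mlxip did not pass (-0.38, adjusted p = 0.0762). The call of Mga was lost when WT penis 1, 2 or 3 was left out (adjusted p = 0.0164, 0.013 and 0.0104). That of Mlxipl was kept without SA tumor 3 (adjusted p = 0.00633) and lost without each of the other 5 libraries, reaching 0.0397 without WT penis 1. It was also lost with limma-voom (0.0209), with transcript rows summed (0.0111) and with no filter on low counts (0.0101). Mlx and Psmc3ip share 385 bases of exon on opposite strands.

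Lists of genes that work with the network, and of its targets, were described by their counts. These lists too were proposed with earlier results of these data known. Of 10 SIN3 corepressor genes, which MXD and MNT proteins recruit, 1 fell, none rose, and the median log2 fold change was -0.02. Under library totals alone 2 rose, none fell, and the median was 0.27. The gene that fell under TMM was Suds3, a SIN3 subunit, at 85.6 ± 3.38 against 126 ± 13.3 CPM (SD, n = 3 each; log2 fold change -0.56, edgeR adjusted p = 0.00201). Sin3a and the deacetylase gene Hdac1 were at 0.00 and 0.08 and did not pass.

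Of 14 MYC coactivator and cofactor genes, 1 rose and 1 fell, or 14.3% called beside 37.6% of all genes. The median was 0.17, and under library totals alone 5 rose and none fell. Zbtb17 encodes MIZ1, the factor with which MYC represses genes, and fell by 0.58 on the log2 scale (SE 0.119, edgeR adjusted p = 0.00358). The call of Zbtb17 was lost without SA tumor 3, WT penis 1 or WT penis 2 (adjusted p = 0.0101, 0.016 and 0.0144). The list had no call without WT penis 1 or without WT penis 2.

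Of 13 genes for MYC protein turnover, 1 rose and 3 fell, or 30.8% called beside 37.6% of all genes, with a median of -0.09. Stub1, a ubiquitin ligase, Ppp2r5a, a subunit of the phosphatase PP2A, and Usp28, a deubiquitinase that spares MYC, fell by 0.80 each on the log2 scale (edgeR adjusted p = 0.000497, 0.000126 and 0.0014). Cip2a, an inhibitor of PP2A listed under its older symbol C330027C09Rik, rose by 0.84 (adjusted p = 0.0023, and 0.0104 without WT penis 2). Fbxw7, the ligase subunit that marks phosphorylated MYC, was at -0.17 and did not pass (adjusted p = 0.209).

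Target genes known from MYC biology were then counted. Of 26 ribosome biogenesis targets, 5 rose and none fell, or 19.2% called higher beside 20.1% of all genes. The median log2 fold change was 0.34 beside 0.03 over all tested genes, and 0.63 beside 0.31 under library totals alone. Polr1a, the largest subunit of RNA polymerase I, was at 92.0 ± 7.01 against 47.0 ± 7.45 CPM (SD, n = 3 each; log2 fold change 0.97, edgeR adjusted p = 0.000441), and Wdr12, a ribosome assembly factor, rose by 0.86 (0.000791). The nucleolar genes Ncl and Fbl, at 0.19 and 0.02, did not pass. The count of 5 was 11 without SA tumor 3 and 2 without any other single library, and 19 under library totals alone.

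Of 27 metabolic and growth targets, 8 rose and 1 fell, or 29.6% called higher beside 20.1% of all genes, with a median of 0.36. Under library totals alone 17 rose and none fell. Tert, the catalytic subunit of telomerase, was at 8.88 ± 2.43 against 2.70 ± 0.45 CPM (SD, n = 3 each; log2 fold change 1.71, edgeR adjusted p = 0.000761). Hk2, a hexokinase of glycolysis, was at 222 ± 48.3 against 83.3 ± 8.48 CPM (1.41, adjusted p = 0.000154). Paics, an enzyme of purine synthesis, went the other way, at -0.58 (adjusted p = 0.000586). Odc1, a classical MYC target for polyamine synthesis named here after its value was seen, was at -0.35 and did not pass (adjusted p = 0.0266).

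Of 8 cell cycle targets, none rose and 1 fell, or 12.5% called beside 37.6% of all genes, with a median of 0.39. DESeq2 called 2 genes of this list higher and 1 lower, and edgeR with library totals alone 4 higher and 1 lower. The gene that fell was Ccnd2, encoding cyclin D2, at 333 ± 21.7 against 1040 ± 163 CPM (SD, n = 3 each; log2 fold change -1.64, edgeR adjusted p = 3.07e-05). Without SA tumor 3, and likewise without WT penis 1, 1 gene of the list was called higher and 1 lower.

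Of 9 genes that MYC represses with MIZ1 or SP1, 2 rose, 5 fell and 2 did not pass, with a median of -0.57. Called lower were thus 55.6% of the list beside 17.5% of all genes, and called higher 22.2% beside 20.1%. Cebpa, a factor of differentiating cells, fell by 1.41 and Ndrg2 by 1.22 (edgeR adjusted p = 8.09e-05 and 0.000217). Cdkn2b, which encodes the cyclin-dependent kinase inhibitor p15 and is also induced by TGFβ signals, rose by 1.84 (adjusted p = 1.95e-05), and Gadd45a, a stress response gene, by 1.78 (4.48e-05). Members of this list thus moved in both directions.

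**Figure D4:**
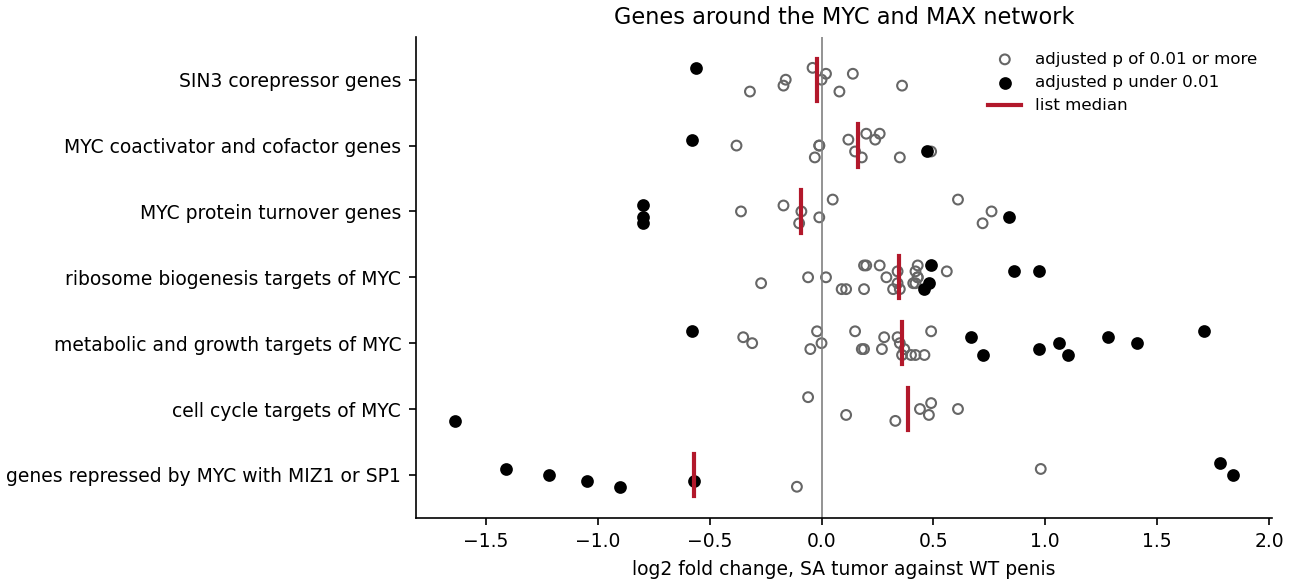
Log2 fold change (SA tumor against WT penis) of each tested gene in 7 lists around the network. Filled points have an edgeR adjusted p under 0.01, open points do not, and red bars are list medians. The ribosome biogenesis list has 5 filled points, all to the right of 0, and a median of 0.34, while the list of repressed genes has filled points on both sides.

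Markers of some other cell types differed between the groups, while none of 6 macrophage and none of 4 tested T cell markers were called. Of 5 general leukocyte markers 1 rose. Beside the counts given here, 20.1% of all tested genes were called higher and 17.5% lower. Markers listed for basal and squamous epithelium were present in every library. The summed level of these 7 genes was 9500 to 11600 CPM in the SA tumors and 17400 to 20200 CPM in the WT penises. Of the 7 genes 1 rose and 3 fell. The 1 that rose was Epcam, which is not specific to squamous epithelium, at 177 ± 44.5 against 34.7 ± 1.68 CPM. Krt15 fell, at 128 ± 19.6 against 1560 ± 211 CPM (SD, n = 3 each), with Krt5 and Trp63 also lower. Of 7 terminal squamous differentiation markers in the files, 6 fell and none rose, and their sum was 12600 to 19300 against 49600 to 55500 CPM. All 7 smooth muscle markers fell, from a sum of 1640 to 2170 CPM in the controls to 89.3 to 197 CPM, so the tissue labelled as normal epithelium held muscle RNA. Of the granulocyte markers, all 4 tested rose, from 56.6 to 120 CPM in sum to 1420 to 2480 CPM, while Mpo and Elane were under 0.2 CPM in every library.

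Further markers bear on single members. Their counts stand beside the same shares of all tested genes, 20.1% called higher and 17.5% lower. Of the 7 proliferation markers 2 rose, and their sum was 553 to 594 CPM in the tumors and 350 to 464 CPM in the controls. The 7 fibroblast markers summed to 1370, 3850 and 4970 CPM in SA tumors 1, 2 and 3 and to 6150 to 6430 CPM in the controls, with 1 of 7 called lower. SA tumor 1, with the lowest fibroblast sum, had the highest Mycn and the lowest Mxd4 level, and SA tumor 3, with the highest sum, had the lowest Mycn and the highest Mxd4 level. The sums of the smooth muscle, endothelium, leukocyte, macrophage and T cell markers followed the same order over the 3 tumors, so it was not particular to fibroblast markers. Of 5 Schwann and nerve markers 1 rose and 3 fell, with a summed level of 205 to 240 CPM in the controls and at most 93.7 CPM in the tumors. The part of these cell types in the levels of Mycn, Mxd4 or the other members was not tested.

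The engineered genes were looked at as well. Smad4 was at 39.6 ± 5.61 CPM in the SA tumors and 67.8 ± 5.92 in the WT penises (log2 fold change -0.77, edgeR adjusted p = 0.00114). Apc was higher in the tumors, at 215 ± 33.4 against 79.6 ± 15.1 CPM (SD, n = 3 each; 1.43, adjusted p = 0.000185). The files count whole transcripts and not the deleted exons, so neither the level of Smad4 nor that of Apc checks its deletion.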

How the data were processed

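Total RNA of 6 samples was sequenced by the authors with a stranded paired-end protocol. Per the labels, TopHat, HTSeq, FastQC and DESeq2 were used with the build mm10, and tool versions are not given in the sources used here. The deposited files hold raw counts for RefSeq transcript rows. FPKM and TPM values, deposited by the authors beside the counts, served only to recover transcript lengths or were not tested.

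The 33068 rows were reduced to 24063 symbols by keeping the row with the highest mean count, since rows of a gene share reads. Counts were analysed with edgeR 4.0.16 in R 4.3.3: filterByExpr (minimum 10 counts, total 15), TMM, robust quasi-likelihood F-test, SA tumor against WT penis, with Benjamini-Hochberg adjustment over 16336 genes. A gene is said to have risen or fallen at an adjusted p-value under 0.01. A second rule, from the study's methods, also required a change of 2 or more on the log2 scale. Lists were summarised by counts and medians only.

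The members, taken by symbol, and the gene lists were proposed with earlier results of these data known. Named genes are the members, their partners, the targeted genes, Pvt1, overlapping genes, up to 2 called genes per list and direction, by size of change, and the 3 genes most like Mycn. Sin3a, Hdac1, Fbxw7, Ncl, Fbl, Odc1, Epcam, Krt15, Krt5 and Trp63 were named after their values were seen. A gene that the rule covers is not reported here. Motifs were searched in RefSeq windows of GRCm38.p6. Exon overlaps were taken from GENCODE M21 over all annotated transcripts of a gene, so a shared stretch need not lie in the row used. Alternatives were DESeq2 1.42.0, limma-voom (limma 3.58.1), other scalings, filters and row choices, a replicate block, and each sample left out. The fits were tested on simulated data with 16025 unchanged genes, 99 genes with a true log2 fold change of 1 in size and 98 at 3. In the data themselves 6148 genes were called, so the shares called in the simulation need not hold for them. In the simulation edgeR called 95.9% of the genes at 3, and 56.6% of those at 1. A small change that did not pass is therefore not shown to be absent.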

Additional observations from a re-analysis of the deposited data

How the results depend on the processing

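Mycn, Mxd4, Mycl and Mlx kept their direction and their call under all alternatives run, with log2 fold changes of 3.93 to 4.43, -1.31 to -0.92, 1.13 to 1.57 and -0.75 to -0.40. Myc and Max kept their direction and did not pass in any. Mxi1 was at -0.32 under upper quartile scaling and -0.09 under library totals alone, and at -0.43 to -0.34 with a sample left out, with edgeR adjusted p-values of 0.00954 to 0.0367 for the last and of 0.00184 to 0.418 over the other alternatives. Mxd1 passed at 0.50 under library totals, where Mxd3 (0.19) and Mnt (0.13) changed sign. With a sample left out Mxd3 ranged from -0.31 to 0.15. The log2 ratio of Myc and Mycn to the MXD genes and Mnt differed by 0.31 with transcript rows summed and 0.16 without division by length. The cause of these changes was not tested.

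The counts of called genes moved by over 1.5 times as follows. DESeq2 called 2 SIN3 genes (both lower), 4 coactivator genes (2 higher), 7 turnover genes (4 higher) and 3 cell cycle genes (2 higher). Library totals called 2 SIN3, 5 coactivator, 19 ribosome biogenesis and 17 metabolic genes, all higher, and 5 cell cycle genes (4 higher), so that the calls of Suds3, Zbtb17 and Paics were lost. Upper quartile scaling called 2 cell cycle genes (1 higher). The ribosome biogenesis count was 3 with limma-voom and 3 with rows summed. With a sample left out the counts ran from 2 to 4 for partners, 0 to 2 for coactivators, 2 to 11 for ribosome biogenesis and 1 to 2 for the cell cycle.

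The replicate numbers showed no sign of pairing the samples. Residuals of same-numbered samples had a mean correlation of -0.072 over 3 pairs (-0.135 to 0.0238), against 0.0344 over 6 other pairs (-0.145 to 0.211). So few pairs, with overlapping ranges, cannot decide whether the numbers pair the samples. With the replicate block Mxi1 was at -0.38 with an edgeR adjusted p of 0.0325, Mlxipl lost its call (adjusted p = 0.0121) and left 3 partners called, coactivators had 1 call, ribosome biogenesis 2, and all genes 5255 in place of 6148.

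Mycn rests on 14 to 26 counts per control library, and the unequal depth makes SA tumor 3 the most precise library.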

Other observations

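Pvt1, a noncoding gene beside Myc on chromosome 15, was at 7.91 ± 0.986 CPM in the SA tumors and 5.38 ± 0.512 CPM in the WT penises (SD, n = 3 each). Its log2 fold change of 0.55 did not pass in edgeR (adjusted p = 0.0287), and Myc itself stood at -0.29.

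Mxi1 has 3 RefSeq rows that differ in their start sites, their ends and their lengths. The row used above was chosen for its highest mean count, so fewer counts in the other 2 rows were fixed by that choice. The size of the shortfall cannot be assigned to the start sites. For NM_010847 the shortfall was 10.7%, 10.9% and 11.7% in the SA tumors and 6.29%, 7.56% and 6.76% in the WT penises, and for NM_001008543 it was 12.5% ± 0.5 and 9.02% ± 1.0 (SD, n = 3 each). The log2 fold changes of the 3 rows were -0.37, -0.44 and -0.43, each with an adjusted p under 0.01 when all transcript rows were tested. The 4 rows of Myc and the 2 of Max held nearly the same counts as each other.

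Over the 6 samples, 435 of 14878 genes averaging 50 counts or more had a Pearson correlation of 0.99 or more with Mycn in log2 CPM. The points share the split into 2 groups of 3, so the value describes the group difference above all. The 3 highest were Rcor2 (0.9998), D130043K22Rik (0.9997) and Bmp2 (0.9996). Bmp2, a ligand of the BMP pathway, was at 260.0 CPM in the SA tumors and 16.3 in the WT penises, and Rcor2, a corepressor gene, at 18.4 and 4.08.

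Of the genes with a promoter window, 6 of 21 in the ribosome biogenesis list (28.6%) and 7 of 22 in the metabolic list (31.8%) held the E-box, beside 8.09% of 27025 genes with a window. The share in the lists was not tested, and both lists were written from known MYC targets.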
